A study of Mus musculus with 12 samples.

Results

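The mRNAs of 10 enzymes of mitochondrial fatty acid beta-oxidation, Acadvl, Acadl, Acadm, Acads, Hadha, Hadhb, Hadh, Acaa2, Decr1 and Eci1, were followed across 3 liver genotypes of the mouse. They were taken by gene symbol from a table of 56748 genes, and each of the 10 symbols was found. RNA-seq had been run on whole liver of 4 animals per genotype, all fasted for 24 h, to ask how loss of the stress-induced transcription factor Atf3 alters a liver that cannot import long-chain fatty acids for oxidation. The single KO (SKO) lacked Cpt2 in the liver, and the double KO (DKO) lacked both Atf3 and Cpt2 there. The controls (WT) were triple floxed animals, which by their label carried floxed Cpt1a, Cpt1b and Cpt2. That label names no Atf3 allele, whereas the controls the study describes for its RT-qPCR were floxed for Atf3 and Cpt2. The controls may thus come from another line than the KO animals, and in comparisons with WT a difference between lines and an effect of the KO cannot be told apart. In the lines of the study an albumin promoter drives Cre, so floxed alleles are removed in hepatocytes and kept in other liver cells. No label gives the sex or the age of an animal, and the study describes its RNA-seq mice as male.

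Beta-oxidation shortens an activated fatty acid in a repeated cycle inside the mitochondrion. An acyl-CoA dehydrogenase makes a double bond, a hydratase adds water, a hydroxyacyl-CoA dehydrogenase oxidizes the product and a thiolase releases acetyl-CoA, with different enzymes for long, medium and short chains. Long-chain fatty acids reach these enzymes through the carnitine shuttle, whose last step is Cpt2, and in the fasted liver much of the acetyl-CoA is turned into ketone bodies.

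The libraries held 14710304 to 20030055 counts on genes, with a median of 17908507. Each of the 10 enzymes had between 3018 and 22293 counts in every liver, far above the 3 counts that a gene listed at 0 may still have. Cpt2 had 199 to 252 CPM (counts scaled to library size with edgeR's TMM method) in WT livers, 109 to 157 in SKO livers and 102 to 127 in DKO livers. Atf3 had 1.11 to 2.16 CPM in WT and 14.5 to 53.5 in SKO livers, and 7.93, 10.8, 13.7 and 0.271 CPM in DKO replicates 1 to 4. The table has no counts per exon, so reads on deleted exons of either gene cannot be separated from the rest. SKO replicate 3 and DKO replicate 4 had 18063 and 20855 counts on Xist, with 2 and 0 counts on 4 Y-linked genes, against at most 19 on Xist and at least 2741 on the Y-linked genes in the other 10 livers. Such counts are those of female animals, unlike the study's description of its mice as male, and no WT liver had them. DKO replicate 4 also had 100546 CPM summed over 9 hepatocyte markers, within the WT range of 81720 to 101509, while the other DKO livers had 46077 to 54903 and the SKO livers 46934 to 73456. Counts of enzymes and listed genes called in DKO against WT are therefore given with and without that liver. Ribosomal RNA genes took 0.452 to 1.36% of counts in WT livers, 0.713 to 1.46% in SKO livers and 1.40 to 2.80% in DKO livers.

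The 10 genes were unequal in abundance. Between genes, levels were compared as CPM per kb of the gene length in the deposited table. In WT livers the highest was Acaa2, the medium-chain thiolase of the last step, at 609 ± 105 CPM per kb (mean ± SD, n = 4). The medium-chain dehydrogenase Acadm followed at 177 ± 15.2 and the long-chain dehydrogenase Acadl at 168 ± 18.8, and the livers of these neighbours overlapped. The very-long-chain dehydrogenase Acadvl had 128 ± 20.3 CPM per kb, all 4 WT livers lying below those of Acadl. Eci1, Acads, Decr1, Hadh and Hadha lay closer together, from 97.9 ± 8.06 down to 67.6 ± 7.77 CPM per kb, and each overlapped the next in this order. Hadhb was the lowest on this scale, at 43.9 ± 3.32 CPM per kb. The order depends on the gene lengths used. In CPM without scaling by length, Acads was the lowest in WT livers, at a mean of 191. On that scale Eci1 had 208, Decr1 287, Hadhb 289 and Hadha 590. Hadhb has a near-identical pseudogene, Hadhb-ps, whose counts equalled 21.4 to 28.3% of those of Hadhb in the 12 libraries, so its level is uncertain where the 2 share reads. Of genes that overlap a member, Dvl2, on the other strand from Acadvl, had 3.14% of the counts of Acadvl. The others had at most 0.0757% of the counts of the gene they overlap.

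Hadha and Hadhb encode the alpha and beta subunits of the mitochondrial trifunctional protein, which carries out the last 3 steps of the long-chain cycle. In the coordinates of the deposited table, taken as GRCm39 for all gene coordinates here, Hadha lies on chromosome 5 from 30323302 to 30360160 on the minus strand and Hadhb from 30360246 to 30389591 on the plus strand, head to head with 85 bases between them. Their upstream sequences are shown because both genes moved together and read, in part, the same DNA in opposite directions. Those of Acadvl and Acadm are shown because they were the members with an AGGTCA half-site, and because one rose in SKO livers and the other was not called. Each line has the 250 bases before the start site and the first 30 from it, 5′ to 3′ on the gene's strand, from RefSeq on build GRCm38.p6. Capitals mark the half-site AGGTCA, the GC box GGGCGG and the AP-1 letters TGANTCA, on either strand.
Hadha, chr5:30154951-30155230, minus strand: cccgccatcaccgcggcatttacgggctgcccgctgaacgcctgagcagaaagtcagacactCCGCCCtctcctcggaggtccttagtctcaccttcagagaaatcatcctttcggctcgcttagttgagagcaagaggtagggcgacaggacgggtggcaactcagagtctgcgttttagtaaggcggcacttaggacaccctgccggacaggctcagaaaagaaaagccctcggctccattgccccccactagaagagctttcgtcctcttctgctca
Hadhb, chr5:30155003-30155282, plus strand: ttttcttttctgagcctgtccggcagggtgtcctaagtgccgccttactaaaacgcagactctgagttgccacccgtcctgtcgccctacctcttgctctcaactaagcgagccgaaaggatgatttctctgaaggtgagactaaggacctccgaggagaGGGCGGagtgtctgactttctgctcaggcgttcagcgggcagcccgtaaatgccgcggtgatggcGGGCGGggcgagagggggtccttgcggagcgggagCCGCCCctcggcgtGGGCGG
Acadvl, chr11:70015399-70015678, minus strand: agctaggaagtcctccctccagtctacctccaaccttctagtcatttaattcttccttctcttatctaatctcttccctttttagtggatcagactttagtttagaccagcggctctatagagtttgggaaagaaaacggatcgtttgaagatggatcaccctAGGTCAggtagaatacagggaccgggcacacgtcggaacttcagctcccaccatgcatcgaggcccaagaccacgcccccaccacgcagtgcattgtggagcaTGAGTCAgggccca
Acadm, chr3:153944614-153944893, minus strand: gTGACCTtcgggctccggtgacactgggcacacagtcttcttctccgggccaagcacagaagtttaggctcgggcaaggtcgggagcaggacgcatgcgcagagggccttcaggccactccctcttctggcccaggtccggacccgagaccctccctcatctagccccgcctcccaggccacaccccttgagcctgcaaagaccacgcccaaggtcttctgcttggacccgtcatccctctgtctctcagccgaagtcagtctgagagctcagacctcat

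The start sites of Hadha and Hadhb were 273 bases apart on that build, and their 300-base windows shared 228 bases. The single GC box in the window of Hadha, 188 bases before its start, was the same 6 bases as the box 90 bases before the start of Hadhb. Of the 10 members, 8 had a RefSeq window, and Decr1 and Acaa2 had none. GGGCGG was in 6 of the 8 windows, namely those of Acadl, Hadh, Hadha, Hadhb, Acads and Eci1, against 35.7% of 32851 windows of the same length. AGGTCA was in 2 of 8, against 16.3%, and TGANTCA was in that of Acadvl alone, against 7.81%. A direct repeat of AGGNCA with 1 base between, the form that PPARα and its partner bind, was in 0 of 8 windows and in 0.381% of all. Likewise 0 of 8 held TNAAGGTCA, an estrogen-related receptor element found in 1.28% of all windows, or the cyclic AMP element TGACGTCA, found in 1.79%. AGGTCA is contained in TNAAGGTCA and can be part of the direct repeat, so these counts are not separate. The median GC content was 61.8% in the members' windows and 52.7% in all.

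In SKO against WT livers, 6 of the 10 enzymes rose and 0 fell, by edgeR's quasi-likelihood test and Benjamini-Hochberg adjustment over all genes. The 6 were Acadl, Hadhb, Decr1, Hadha, Acadvl and Eci1, with folds of 1.90 to 1.46. Acads, Acadm, Hadh and Acaa2 were not called. Over all 14261 genes tested, 32.1% were called, 16.7% higher and 15.4% lower. The median log2 fold change was 0.56 over the 10 enzymes and 0.03 over all genes tested. These are bulk livers, in which fewer cells of a type and less RNA per cell cannot be told apart.

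Among the acyl-CoA dehydrogenases of the first step, Acadl (chromosome 1, 66869998 to 66902436), which acts on long chains, had 297, 316, 383 and 348 CPM in WT replicates 1 to 4, 508, 707, 698 and 608 in SKO, and 491, 582, 492 and 396 in DKO. Every SKO and DKO liver was above every WT liver, and the SKO and DKO livers overlapped. Acadl rose by a log2 fold change of 0.92 (SE 0.15) in SKO, with an adjusted p of 0.000613. Acadvl (chromosome 11, 69901009 to 69906237), for very long chains, had 263, 369, 378 and 368 CPM in WT, 510, 448, 585 and 471 in SKO, and 452, 515, 302 and 290 in DKO. The SKO livers all lay above WT, whereas the DKO livers split into 2 above every WT liver and 2 inside the WT range. The log2 fold change in SKO was 0.57 (SE 0.15, adjusted p 0.0128). It was 0.55 with an adjusted p of 0.0601 when all 12 livers shared 1 fit.

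The dehydrogenases for shorter chains were not called in any of the 3 comparisons with TMM scaling. Acadm (chromosome 3, 153627994 to 153650269), for medium chains, had 619 to 762 CPM in WT livers, 634 to 763 in SKO livers and 658 to 850 in DKO livers. The 3 groups overlapped almost wholly, and the log2 fold change in SKO was 0.06, with a 95% interval of -0.22 to 0.34. Acads (chromosome 5, 115248358 to 115257405), for short chains, had 162 to 211 CPM in WT livers, 194 to 256 in SKO livers and 185 to 225 in DKO livers. These ranges overlapped too, at a log2 fold change of 0.24 in SKO (95% interval -0.05 to 0.53, adjusted p 0.200). With library totals as the only scaling, Acads was called at 0.41, in a fit where the median of all genes was 0.20.

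Both subunits of the trifunctional protein rose in SKO livers. Hadha had 490, 604, 632 and 633 CPM in WT replicates 1 to 4, 988, 1129, 1147 and 807 in SKO, and 758, 989, 651 and 501 in DKO. Hadhb had 258, 295, 294 and 310 CPM in WT, 473, 608, 543 and 459 in SKO, and 392, 514, 405 and 291 in DKO. For both genes the SKO livers were all above WT, DKO replicates 1 to 3 were above WT, and DKO replicate 4 lay inside the WT range. The log2 fold changes in SKO were 0.80 (SE 0.15, adjusted p 0.00199) for Hadha and 0.86 (SE 0.13, adjusted p 0.000515) for Hadhb. Within a library, the log2 ratio of Hadha to Hadhb per length was 0.52 to 0.70 in WT livers, 0.41 to 0.67 in SKO livers and 0.28 to 0.54 in DKO livers. The ratio overlapped between all 3 groups.

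Hadh and Acaa2, which carry out the third and the last step for medium and short chains, were not called higher in KO livers. Hadh (chromosome 3, 131027068 to 131065750) had 310, 344, 398 and 400 CPM in WT, 294, 327, 352 and 248 in SKO, and 250, 319, 267 and 420 in DKO. The KO livers overlapped WT, and the highest Hadh of all was in DKO replicate 4. Acaa2 (chromosome 18, 74912268 to 74939279) had 737, 844, 1065 and 1049 CPM in WT, 737, 910, 803 and 552 in SKO, and 635, 675, 718 and 998 in DKO. It overlapped in the same manner, again with DKO replicate 4 at WT height and the other DKO livers below the lowest WT liver. The log2 fold changes in SKO were -0.23 for Hadh (95% interval -0.55 to 0.08) and -0.28 for Acaa2 (-0.68 to 0.11), with adjusted p of 0.249 and 0.264.

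The auxiliary enzymes for unsaturated fatty acids were both called higher in SKO. Decr1 (chromosome 4, 15917240 to 15945507) is the reductase that removes one of a pair of conjugated double bonds. It had 261, 283, 297 and 306 CPM in WT, 424, 636, 501 and 456 in SKO, and 368, 455, 427 and 325 in DKO. Every KO liver exceeded every WT liver, and the log2 fold change in SKO was 0.83 (SE 0.15, adjusted p 0.00128). Eci1 (chromosome 17, 24645615 to 24658322), the isomerase that shifts a double bond into the position the cycle can use, had 188, 201, 217 and 227 CPM in WT, 270, 414, 288 and 233 in SKO, and 234, 281, 305 and 229 in DKO. Every KO liver was above WT, the lowest by little, and SKO replicate 2 was the highest. Eci1 rose by 0.55 (SE 0.17, adjusted p 0.0300). Without SKO replicate 2 its log2 fold change was 0.36 and it was no longer called, and leaving out any 1 of the WT livers also lost the call, at 0.49 to 0.58.

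**Figure D1:**
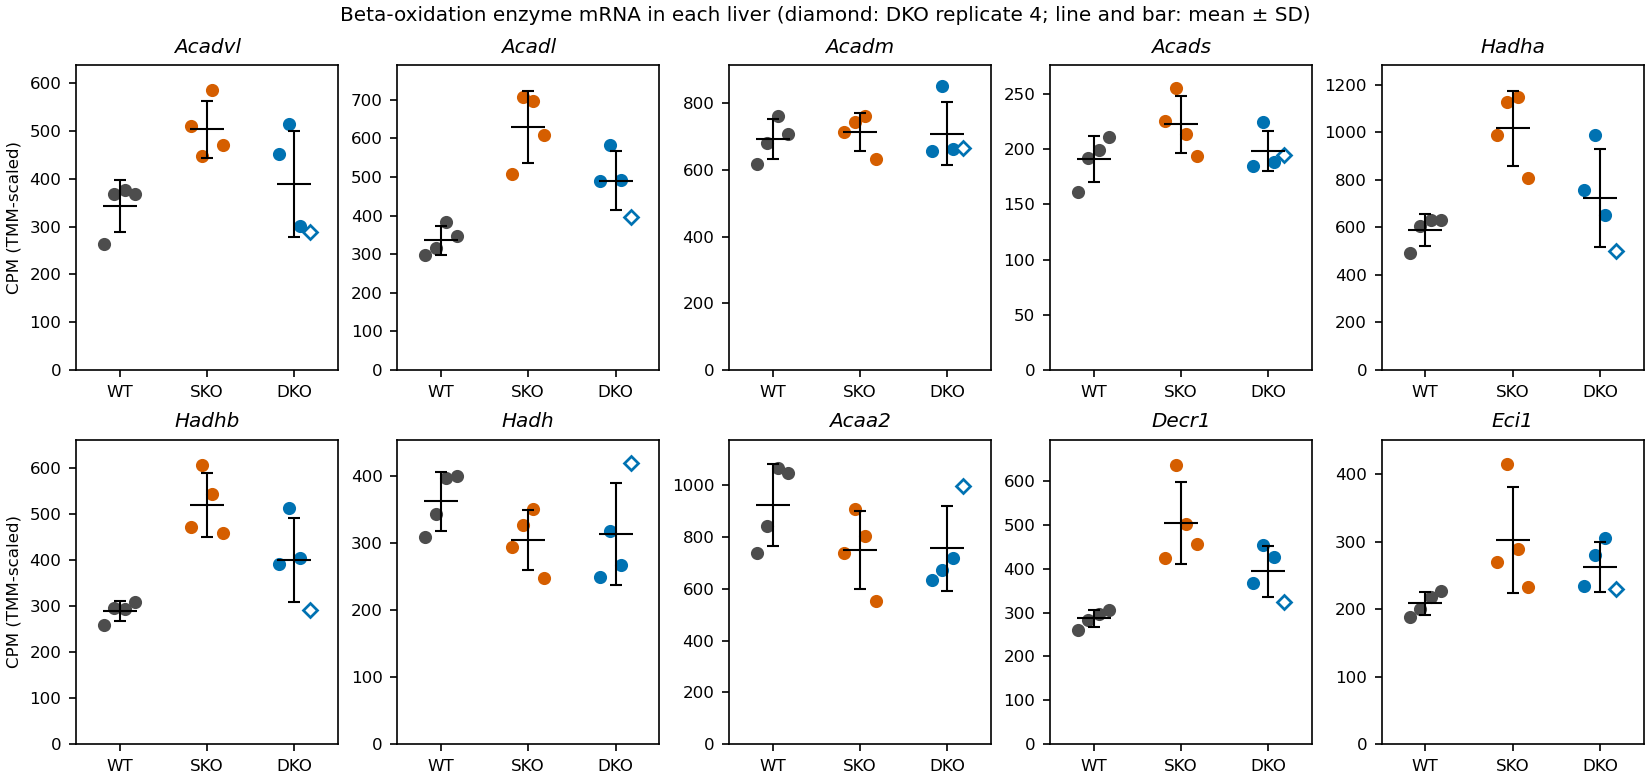
TMM-scaled CPM (vertical axes, from 0, each panel on its own scale) of the 10 enzymes in the 4 livers of each genotype, with mean ± SD. Acadvl, Acadl, Hadha, Hadhb, Decr1 and Eci1 have every SKO liver above every WT liver, and DKO replicate 4, drawn as a diamond, lies inside the WT range for Acadvl, Hadha and Hadhb.

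Livers of SKO and WT did not overlap for those 6 genes, always with SKO higher. Over all genes tested, 16.4% were higher in SKO without overlap and 33.0% did not overlap in either direction. When SKO replicate 3, the liver with Xist counts, was left out, 6 members were still called higher and 0 lower, against 32.5% of all genes called.

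The make-up of the pathway's mRNA within a library needs no scaling between libraries. Acadvl, Acadl, Hadha and Hadhb, which serve the long-chain steps, made up 25.9 to 28.0% of the summed length-scaled counts of the 10 genes in WT livers. In SKO livers they made up 35.8 to 41.9%, and in DKO replicates 1 to 4 they made up 37.7, 38.5, 32.3 and 25.5%. The SKO livers and DKO replicates 1 to 3 were above every WT liver, and DKO replicate 4 was below all of them. The medium- and short-chain genes, Acadm, Acads, Hadh and Acaa2, made up 60.6 to 63.0% in WT and 43.3 to 48.9% in SKO livers. In the DKO livers they made up 48.5, 47.2, 51.1 and 62.5%. Acaa2 alone was 39.9% ± 1.99 (SD, n = 4) of the total in WT livers, 27.2% ± 2.39 in SKO livers and 31.5% ± 6.88 in DKO livers, with 41.2% in DKO replicate 4. Decr1 and Eci1 together took 11.3% ± 0.684 in WT livers, 15.0% ± 1.66 in SKO livers and 14.2% ± 1.90 in DKO livers. These shares depend on the gene lengths used and follow from the single genes above, so they were not tested again.

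**Figure D2:**
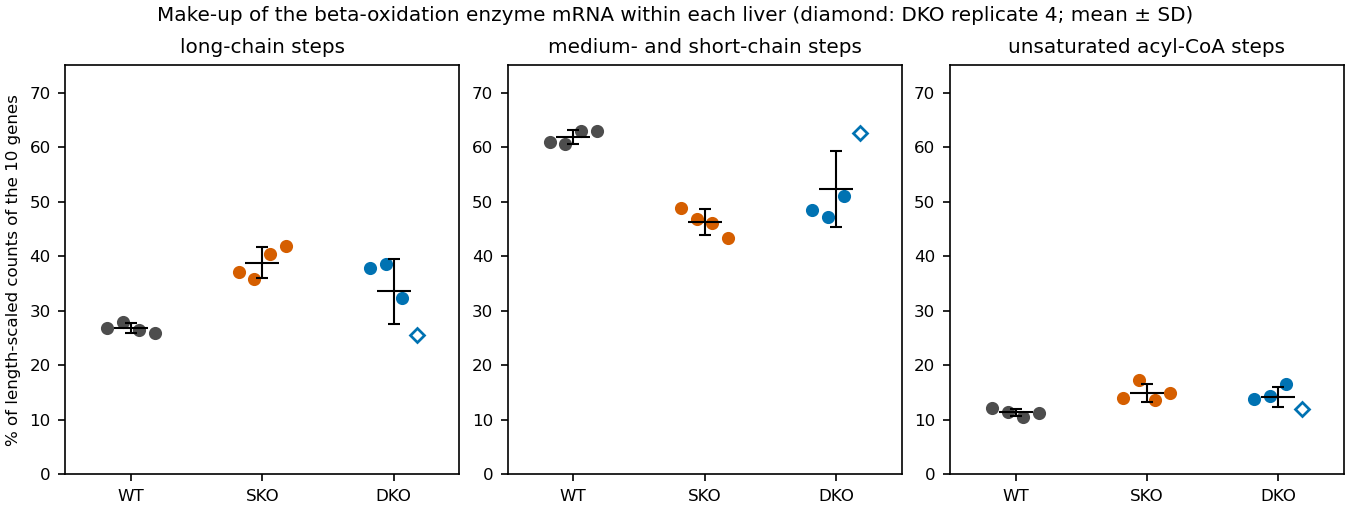
Share (%, vertical axis from 0) of the summed length-scaled counts of the 10 genes held by the long-chain, the medium- and short-chain and the unsaturated acyl-CoA steps, 1 point per liver, with mean ± SD. The long-chain share is 25.9 to 28.0% in WT and 35.8 to 41.9% in SKO livers, and DKO replicate 4, drawn as a diamond, is at 25.5%.

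Counted together, the 10 genes took 0.351 to 0.413% of a library in WT livers, 0.490 to 0.628% in SKO livers and 0.411 to 0.550% in DKO livers. The summed level was 4224 ± 480 CPM (SD, n = 4) in WT livers, 5470 ± 694 in SKO livers and 4638 ± 513 in DKO livers. Every SKO liver exceeded every WT liver on both scales. DKO overlapped with both groups in summed CPM.

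In DKO against WT livers, Acadl was the single enzyme called, higher by a log2 fold change of 0.56 (SE 0.15, adjusted p 0.0480 by edgeR's quasi-likelihood test and Benjamini-Hochberg adjustment), or 1.47-fold. That is 1 of 10, against 10.5% of 14448 genes tested, with 6.06% called higher and 4.39% lower. Acadl was 0.47 to 0.74 under the alternatives tried and was called under 4 of 14 different fits. Decr1, at 0.47 (95% interval 0.15 to 0.78, adjusted p 0.0612), and Eci1, at 0.34 (0.04 to 0.65, adjusted p 0.129), were not called, although their DKO livers, like those of Acadl, did not overlap with WT. Over all genes tested, 16.9% did not overlap between the groups, and 8.05% did not overlap with DKO higher. Hadhb had 0.48 (0.09 to 0.87, adjusted p 0.0996), Hadha 0.31 (-0.15 to 0.77) and Acadvl 0.19 (-0.29 to 0.67). Acads was at 0.06, Acadm at 0.05, Hadh at -0.20 and Acaa2 at -0.28, all with intervals across 0. The median over the 10 enzymes was 0.25, and 0.03 over all genes tested. DKO and SKO livers were set against the same 4 WT livers, so these values are not independent of those for SKO.

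The DKO values rested heavily on replicate 4. Without it, 7 of the 10 enzymes were called, 5 higher and 2 lower, and the share of all genes called went up as well, to 35.9%. Acadl had a log2 fold change of 0.64 (adjusted p 0.00190), Hadhb 0.60 (0.00290), Decr1 0.55 (0.00293), Hadha 0.45 (0.0406) and Eci1 0.40 (0.0230). Hadh, at -0.37 (adjusted p 0.0450), and Acaa2, at -0.44 (0.0323), were called lower. Acadvl (0.31), Acadm (0.07) and Acads (0.07) were not called. In the 3 remaining livers Acaa2 ranged from 635 to 718 CPM, below the lowest WT liver at 737. Leaving out any other single WT or DKO liver gave 0 members called. The number of all genes called also varied widely with 1 liver left out, as given below, so that 0 is no result about the members.

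DKO replicate 4 lay inside the WT range in the hepatocyte markers and just below it in the long-chain share. Its Cpt2, at 102 CPM, and its Atf3, at 0.271 CPM, were the lowest of the 12 livers. Part of the DKO spread was also among the other 3 livers, since Acadvl was 452, 515 and 302 CPM and Hadha 758, 989 and 651 CPM in replicates 1 to 3. What made these livers differ was not tested.

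**Figure D3:**
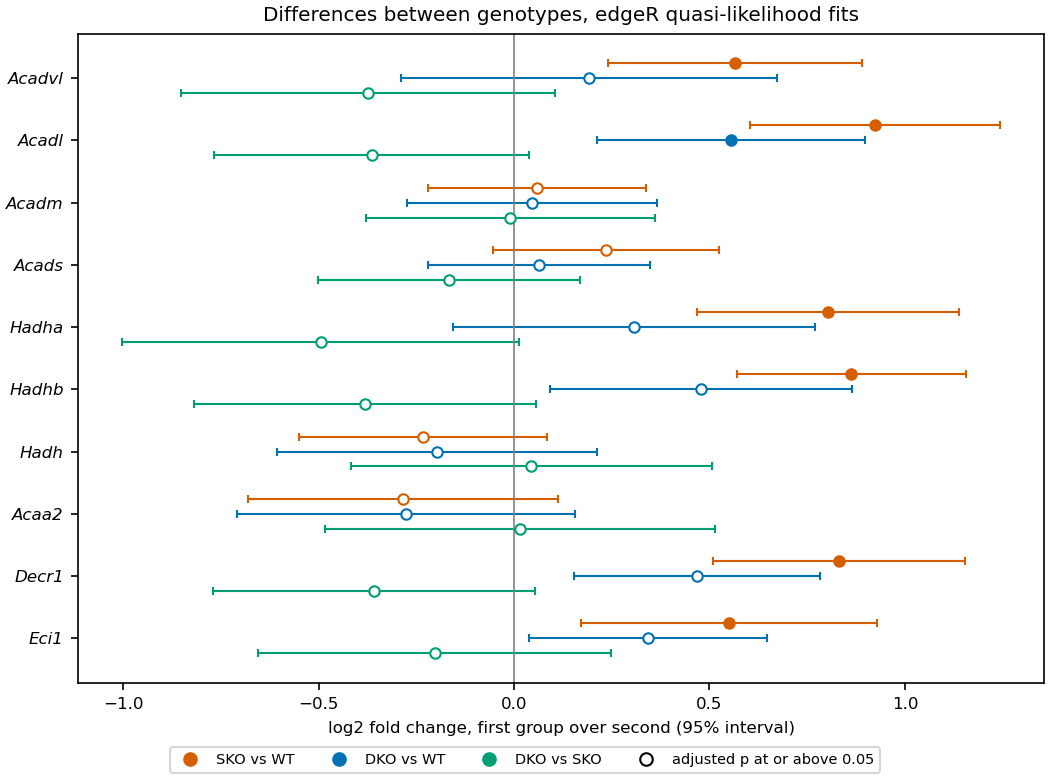
Log2 fold change (horizontal axis) with its 95% interval for the 10 enzymes in the 3 comparisons, where filled points have an adjusted p under 0.05. In SKO against WT 6 enzymes are filled, in DKO against WT Acadl is filled at 0.56, and in DKO against SKO no point is filled and every interval crosses 0.

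DKO and SKO livers differ by their labels in the Atf3 genotype. The SKO label names no Atf3 allele either, so these groups may also come from different lines, which cannot be told apart from the loss of Atf3. In DKO against SKO, 0 of the 10 enzymes were called by edgeR's quasi-likelihood test and Benjamini-Hochberg adjustment. Over all 14363 genes tested it was 0.0209%, or 3 genes. At an unadjusted p under 0.05 there were 0 members and 6.49% of all genes, and DESeq2 also called 0 members. Of the 10 log2 fold changes, 8 were below 0, with a median of -0.28 against 0.01 over all genes tested. Hadha had the lowest value, -0.49 (SE 0.23, 95% interval -1.0 to 0.01, unadjusted p 0.0552). Hadhb was at -0.38 (-0.82 to 0.06), Acadvl at -0.37 (-0.85 to 0.11), Acadl at -0.36 (-0.77 to 0.04) and Decr1 at -0.36 (-0.77 to 0.05). Eci1 was at -0.20 and Acads at -0.17. Acadm at -0.01, Acaa2 at 0.02 and Hadh at 0.04 were nearest to 0, with intervals of -0.38 to 0.36, -0.48 to 0.51 and -0.42 to 0.51. The livers of DKO and SKO overlapped for all 10, while 4.00% of all genes had no overlap. Without DKO replicate 4 there were again 0 called, against 0.103% of all genes, and the median was -0.21 with 9 of 10 values below 0. It was -0.18 with SKO replicate 3 left out as well.

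Liver by liver, the median of the 10 log2 differences from the WT mean was -0.19, -0.02, 0.12 and 0.11 in WT replicates 1 to 4. It was 0.47, 0.69, 0.63 and 0.31 in SKO, and 0.27, 0.51, 0.07 and 0.08 in DKO. Every SKO liver was above every WT liver, and the DKO livers ran from inside the WT range to inside the SKO range. In WT replicate 1 all 10 enzymes were below the WT mean, and in WT replicates 3 and 4 all 10 were above it. The typical biological coefficient of variation (the spread between livers beyond counting) of the 10 in SKO against WT was 0.179 at the median, beside 0.183 over the 1000 most abundant genes and 0.201 over all genes.

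Genes whose profile over the 12 livers was closest to the members' median were sought among 9793 genes with a mean of at least 5 CPM, as the root mean square of the difference in centred log2 CPM. The closest outside the set were Atp13a1 at 0.07, Gpi1 at 0.09, Eef2 at 0.09, Miga2 at 0.10 and Mllt1 at 0.11, and the median gene was at 0.36. Among the members, which enter the median themselves, Acads was closest at 0.13, and Hadh at 0.37 and Acaa2 at 0.40 were farthest.

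The rest of the mitochondrial cycle was mixed. Of 11 other genes of mitochondrial steps and electron transfer, 4 rose and 2 fell in SKO against WT. Those that rose were the acyl-CoA dehydrogenases Acad12, by 1.34 (SE 0.22), and Acad11, by 0.63 (SE 0.13), the isomerase Eci2, by 0.69 (SE 0.16), and Etfdh, which passes the electrons of the dehydrogenases on to ubiquinone, by 0.45 (SE 0.13). The short-chain hydratase Echs1 fell by 0.38 on the log2 scale and Acad9, known for its part in assembling respiratory complex I, fell by 0.60. Etfa, Etfb, Acad10, Hsd17b10 and Acat1 were not called. In DKO against WT 0 of the 11 were called, with Acad12 at 0.64 (95% interval 0.03 to 1.25), and without DKO replicate 4 there were 1 higher and 2 lower.

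The relatives that act on branched-chain and other amino acids went the other way from Acadl and Acadvl. All 4 fell in SKO against WT. Acadsb, of isoleucine breakdown, had a log2 fold change of -1.38 (SE 0.14, adjusted p 3.12e-05), Ivd, of leucine breakdown, -1.15 (SE 0.16), Gcdh, of lysine breakdown, -0.93 (SE 0.13) and Acad8, of valine breakdown, -0.84 (SE 0.11). In DKO against WT Acadsb was called, at -0.83 (adjusted p 0.0442), and the other 3 were at -0.46 to -0.73 without a call. Without DKO replicate 4 all 4 were called lower, at -1.12 for Acadsb, -1.14 for Ivd, -0.78 for Gcdh and -0.70 for Acad8. Against SKO, the 4 genes in DKO livers were at 0.34 to 0.56, and 0 were called. Their median there was 0.46, and 0.14 without DKO replicate 4.

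The carnitine shuttle, which feeds the cycle, had 5 of 6 genes higher and Cpt2 lower in SKO. The carnitine transporter Slc22a5 rose 3.15-fold, the carnitine acetyltransferase Crat 3.10-fold and Cpt1b 7.41-fold, beside Slc25a20 at 1.38-fold and Cpt1a at 1.36-fold. Cpt1b was scarce, with 5 to 99 counts per liver, so its folds rest on few counts. It had 0.277 to 0.718 CPM in WT livers, 1.45 to 5.02 in SKO livers and 1.08 to 3.48 in DKO livers. Cpt1a had 886 to 1067 CPM in WT livers and 1151 to 1545 in SKO livers. In DKO livers Slc22a5 (2.11-fold), Crat (2.03-fold) and Cpt1b (5.22-fold) were higher and Cpt2 lower (0.505-fold), while Cpt1a (1.24-fold) and Slc25a20 (1.16-fold) were not called. Without SKO replicate 3 the count in SKO was 3 higher, and without DKO replicate 4 it was 4 higher in DKO, each with Cpt2 lower.

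Peroxisomal oxidation, which starts on chains too long for the mitochondrion, had 8 of 17 genes higher and 5 lower in SKO. Ehhadh, its bifunctional enzyme, rose 6.64-fold, above any of the 10 mitochondrial enzymes. Acaa1b, its thiolase, rose 4.71-fold. It has a similar copy, Acaa1a, and how reads that match both were counted is not given in the sources used here, so its value is uncertain. Pecr, a peroxisomal enoyl-CoA reductase, was at 0.180-fold and Acox2, an oxidase of bile acid intermediates, at 0.450-fold. In DKO, Acaa1b was called higher at 2.73-fold and Acox2 lower at 0.558-fold, and without DKO replicate 4 there were 6 higher and 4 lower.

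Ketone synthesis had 0 of 3 genes called in either KO against WT by edgeR's quasi-likelihood test. At an unadjusted p under 0.05 there were 2 of the 3 in SKO and 1 in DKO. Without DKO replicate 4, 1 of the 3 was called lower in DKO.

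Other genes known as targets of PPARα, the fatty acid sensing receptor of the fasted liver, had 10 of 15 called higher in SKO and 7 of 15 in DKO against WT, and 0 lower. Without DKO replicate 4, 9 of 15 were higher in DKO and 0 lower. Pdk4, which restrains pyruvate oxidation, rose 93.0-fold in SKO and 84.4-fold in DKO, or 109.5-fold without DKO replicate 4. The lipid droplet genes Cidec and Plin2 rose 20.2-fold and 8.87-fold in SKO. The largest change among the 10 enzymes, 1.90-fold for Acadl, was below each of these. Of 13 regulators, 1 was higher and 2 were lower in SKO, or 23.1%, a share below the 32.1% of all genes. Nrf1, a transcription factor of nuclear genes for mitochondrial proteins, rose by 0.57, and Rxra, the partner of PPARα, and the mitochondrial deacetylase Sirt3 fell by 0.62 and by 0.47 on the log2 scale. Without SKO replicate 3, 2 were higher and 5 lower of the 13, where 32.5% of all genes were called. The list's share was then above that of all genes, so its place below rested on that liver. In DKO Nrf1 was higher (0.68) and Rxra lower (-0.67), and without DKO replicate 4 there were 3 higher and 5 lower. Ppara itself was at 0.23 (95% interval -0.26 to 0.71) in SKO and -0.26 (-0.70 to 0.18) in DKO.

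In the TCA cycle, which burns the acetyl-CoA, 4 of 16 genes rose and 1 fell in SKO. That is 31.25% of the list, beside 32.1% of all genes, so the count is no result about the list. Cs, its entry enzyme, rose by 1.08, Mdh2 by 0.56 and Idh3a by 0.52 in log2 fold change, and Sdha fell by 0.36 on that scale. In DKO Cs was called, at 0.88, and without DKO replicate 4 there were 3 genes higher and 3 lower of the 16, where 35.9% of all genes were called. In DKO against SKO, 0 genes were called in each of these 8 lists. The median log2 fold change in SKO against WT was -0.06 over the other mitochondrial genes, -1.04 over the amino acid dehydrogenases, 1.05 over the shuttle, 0.42 over the peroxisomal genes, -0.09 over ketone synthesis, 0.89 over the PPARα targets, -0.12 over the regulators and 0.05 over the TCA cycle, beside 0.03 over all genes. The lists were written with earlier results of these data known, so their directions are descriptions.

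**Figure D4:**
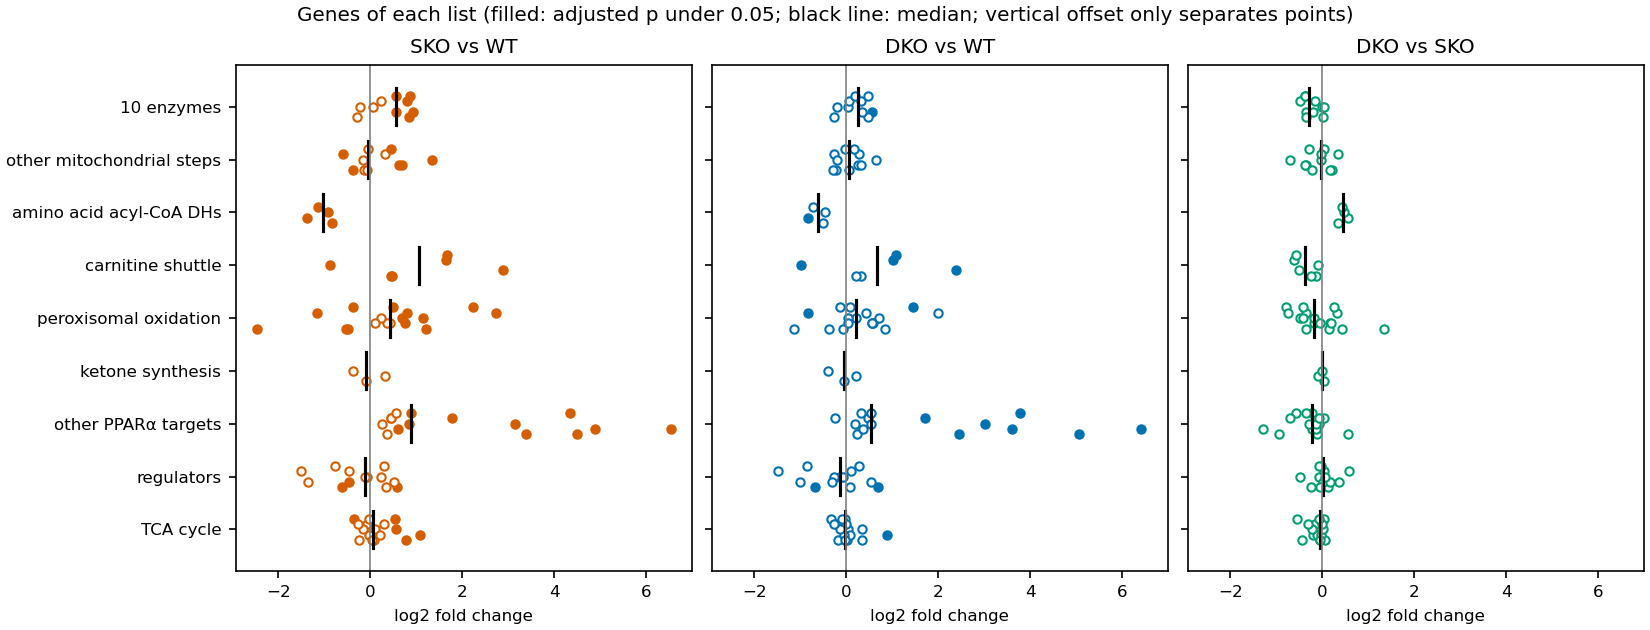
Log2 fold change (horizontal axis, the same in all 3 panels) of the 10 enzymes and of the genes of 8 related lists, filled where the adjusted p is under 0.05, with the list's median as a black line. The 10 enzymes spread from -0.28 to 0.92 in SKO against WT, the 4 dehydrogenases of amino acid breakdown are all below 0, and no point is filled in DKO against SKO.

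Cell type markers moved in part with the genotypes. Of 9 hepatocyte markers tested, 5 were lower and 0 higher in SKO, and 1 was lower in DKO, or 5 without DKO replicate 4. Summed cholangiocyte markers were 28.0 to 33.5 CPM in WT livers, 7.37 to 14.3 in SKO livers and 9.63 to 31.7 in DKO livers, and stellate cell markers 177 to 214, 241 to 341 and 224 to 287 CPM. Macrophage markers (160 to 308, 164 to 353 and 107 to 344 CPM), endothelial markers (197 to 470, 247 to 352 and 233 to 353), lymphocyte markers (7.31 to 17.6, 5.17 to 15.9 and 5.37 to 20.3) and erythroid markers (109 to 235, 145 to 502 and 119 to 668) overlapped in sum between the 3 groups. Single markers were called all the same. In SKO the macrophage marker Cd68 rose 4.86-fold (adjusted p 0.000107 by edgeR's quasi-likelihood test), with no overlap of livers and as 1 of 8 macrophage markers. All 3 erythroid markers were called in SKO, with the globins Hba-a1 and Hbb-bs 2.42-fold and 2.51-fold higher and Alas2, of haem synthesis, lower at 0.427-fold. In DKO Alas2 was lower too, at 0.527-fold (adjusted p 0.0378 by the same test), and the globins were not called. The cholangiocyte marker Sox9 was lower in both, at 0.274-fold in SKO and 0.307-fold in DKO. In SKO the cholangiocyte marker Spp1 was also lower, at 0.370-fold, and the stellate cell marker Dcn rose 1.53-fold. In DKO 1 of 4 cholangiocyte markers tested was lower and 0 of 6 stellate cell markers were called, and without DKO replicate 4 it was 2 of 5 lower and 1 of 6 higher. In DKO 1 of 8 macrophage markers was called lower, Marco at 0.260-fold. Without DKO replicate 4, 6 macrophage markers were lower and 1 higher, and their sum in the other 3 DKO livers was 107 to 151 CPM, below every WT liver. Of 4 adipocyte markers 1 was at 0 in every liver, and their sum was at most 0.670 CPM. The part of cell makeup in the members' values was not tested.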

How the data were processed

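Whole-liver RNA of 12 mice, 4 per genotype, had been purified with TRIzol and RNeasy columns and sequenced by a commercial provider. The table that the authors deposited holds unscaled read counts for each Ensembl gene, and the submitters' processing notes name HISAT2 and the builds GRCm38 and mm10. The counting program and its strand setting are not given in the sources used here. The coordinates in the table differ from GRCm38, since 1435 of 52073 shared genes lie at the same position, and were taken as GRCm39, so RefSeq promoter coordinates, on GRCm38.p6, cannot be set beside them. The authors' FPKM values, fold changes and p-values were not used.

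Genotypes were compared in pairs with edgeR 4.0.16 (R 4.3.3) on the counts, with TMM scaling within the 8 livers, filterByExpr and the quasi-likelihood test, two-sided. Benjamini-Hochberg adjustment covered every gene tested, with a threshold of 0.05. The SE is the log2 fold change divided by the root of the F statistic. CPM used TMM over all 12 livers, and a gene at 0 may have up to 3 counts (0.145 to 0.196 CPM), a limit that covers counting error only. The script was checked on simulated counts. Alternatives were DESeq2 1.42.0, RLE scaling, library totals, no filter, 1 fit of all livers, a replicate block, each liver left out in turn and the livers with Xist counts left out. The list counts without SKO replicate 3 or DKO replicate 4 were added after seeing the data. Nothing says whether libraries share a litter or batch, so p-values measure the spread between these livers. Libraries of a genotype differed by a chi-square of at least 18.5 per degree of freedom, so none was a copy. The enzymes and the gene lists were chosen with earlier results of these data known. The text names all 10 enzymes, Cpt2 and Atf3, the genes of the other mitochondrial steps and of the related dehydrogenases, up to 4 genes per comparison with the smallest p from each further list, and the 5 genes closest to the members' median profile. Beyond that rule, Cpt1a (to complete a list), Acaa1a, Hadhb-ps, Dvl2 and the cell type markers Cd68, Marco, Sox9, Spp1, Dcn, Hba-a1, Hbb-bs and Alas2 were named after their values were seen. Results on 2 genes that the rule would name are not reported here.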

Additional observations from a re-analysis of the deposited data

Results flagged for a closer look

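In 3 cases 1 liver stood far from the other 3 of its genotype, by Dixon's criterion for 4 samples at the 95% level, which sets the gap to the nearest liver against the group's range. Acadvl had 263 CPM in WT replicate 1, against 368 to 378 CPM in the other WT livers. Acadm had 850 CPM in DKO replicate 2, against 658 to 666 CPM in the other DKO livers. The summed level of the 10 enzymes was 5403 CPM in DKO replicate 2, against 4308 to 4422 CPM. Chance alone gives such a result in about 1 in 20 groups, and 36 groups were examined.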

How the results depend on the processing

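In SKO against WT, 5 to 7 members were called under every alternative, and Acadl, Hadha, Hadhb and Decr1 were called under all 14 different fits. Leaving out the liver with Xist counts is the same fit as leaving out that replicate in each comparison with WT. Over all genes, 4576 (32.1%) were called in SKO as reported and 4711 (32.5%) without SKO replicate 3. In DKO against WT the 1 member called became 2 with DESeq2, 0 with RLE scaling, 0 with no low-count filter, 4 with library totals and 7 without the livers with Xist counts, and 0 to 7 with 1 liver left out. The counts over all genes were 1510 as reported, 2509 with DESeq2, 5253 without the livers with Xist counts and 244 to 5253 with 1 liver left out. In DKO against SKO 0 members were called throughout, and the 3 genes called in all became 87 with DESeq2, 35 with no filter, 21 without the livers with Xist counts and 0 to 15 with 1 liver left out. Library totals moved the median of all genes from 0.03 to 0.20 in both comparisons with WT, and the split of calls from 2378 higher and 2198 lower to 3759 and 1562 in SKO and from 876 and 634 to 1788 and 469 in DKO.

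Same-numbered livers did not deviate together (r from -0.42 to 0.15 over 9793 genes), and not every liver correlated best with its own number, so the numbers do not pair them. With a replicate block, 5, 0 and 0 members and 4111, 691 and 0 genes were called in SKO against WT, DKO against WT and DKO against SKO.

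Values near 0 changed sign. In DKO against SKO, Acaa2 was at -0.010 with DESeq2, -0.0012 with library totals, -0.020 with no filter and -0.13 without the livers with Xist counts, where Acadm was at 0.044 and Hadh at -0.067. With 1 liver left out, Acadm ranged from -0.0084 to 0.12 in SKO against WT, -0.050 to 0.090 in DKO against WT and -0.10 to 0.026 in DKO against SKO, Acads from -0.025 to 0.11 in DKO against WT, and Hadh from -0.14 to 0.14 and Acaa2 from -0.16 to 0.12 in DKO against SKO. The log2 ratio of Hadha to Hadhb was 0.69 to 1.10 without length scaling. The cause of these changes was not tested.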
